A study of Mus musculus with 20 samples.

Results

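The 8 genes described here govern how skeletal muscle takes up and traps glucose. They were followed across 20 gastrocnemius samples, 10 from mice given JA16, an antibody against myostatin, and 10 from mice given saline. They are Tbc1d1, Tbc1d4, Slc2a4, Slc2a1, Hk2, Txnip, Prkaa2 and Prkag3. The choice was made by symbol, with earlier results of these data known. It took in every probe set that the platform annotation assigns to 1 of them alone. All 8 genes were found, with 18 probe sets in all, among 11200 genes that entered the comparison. All 18 probe sets had a mean above the median of all probe sets, the limit used for dim signals.

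Both groups were injected into the peritoneum on days 1 and 3 and killed on day 5, when the gastrocnemius, a calf muscle, was frozen. JA16 was given at 0.12 mg per g body weight on day 1 and 0.09 mg per g on day 3. The labels give no strain, sex or age and no genetic change in either group. Whether every array stands for a different animal is not stated, so the p-values describe the spread among these 20 samples, some of which may be technical.

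In muscle, glucose enters through transporters of the SLC2 (GLUT) family. Slc2a4 encodes GLUT4, which waits in vesicles inside the fibre and is moved to the surface when insulin signals through Akt or when contraction activates the AMP-activated kinase (AMPK). TBC1D1 and TBC1D4 (also called AS160) are Rab GTPase-activating proteins that hold the vesicles back until these kinases phosphorylate them. Hexokinase then phosphorylates glucose, which keeps it in the cell, and TXNIP, a protein that rises with glucose supply, lowers uptake by drawing transporters off the surface.

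Of the 8 genes, Tbc1d1 alone passed the test, and only in the fit that compares samples of the same replicate number. Because Tbc1d1 is the gene on which the results turn, the 250 bases before each of its RefSeq start sites are shown, 5′ to 3′ on the plus strand of GRCm38.p6, with the Smad element CAGAC and the myogenic E-box CAGCTG in capitals where they occur on either strand.
Tbc1d1 chr5:64160010-64160259: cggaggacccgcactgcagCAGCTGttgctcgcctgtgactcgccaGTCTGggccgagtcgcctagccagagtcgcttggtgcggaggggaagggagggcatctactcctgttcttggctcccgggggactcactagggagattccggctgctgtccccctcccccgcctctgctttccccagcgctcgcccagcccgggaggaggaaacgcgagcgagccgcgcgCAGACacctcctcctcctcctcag
Tbc1d1 chr5:64230107-64230356: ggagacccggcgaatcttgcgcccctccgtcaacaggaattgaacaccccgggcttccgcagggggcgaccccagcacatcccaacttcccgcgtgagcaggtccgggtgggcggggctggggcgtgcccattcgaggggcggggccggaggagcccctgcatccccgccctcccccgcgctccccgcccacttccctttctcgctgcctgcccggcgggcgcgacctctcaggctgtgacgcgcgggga

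The first window held 2 matches to CAGAC, the short element that Smad proteins, the mediators of myostatin signals, can bind, and the second held 0. A match to CAGAC, on either strand, was present in 42.2% of all 32851 promoter windows of this length. The CAGCTG match in the first window had a counterpart in 13.0% of all windows. The E-box CACGTG of carbohydrate response elements was absent from both Tbc1d1 windows and present in 6.02% of all. The FoxO element GTAAACA and the MEF2 element were likewise absent there and present in 3.17% and 3.20% of all windows. Every motif was searched on both strands, and no 2 of them overlap in the first window. Windows were found for 7 of the 8 genes. Among the others, Slc2a1 held 1 CAGAC match, Prkag3 held 1 CAGCTG match and Txnip held 1 FoxO match. These matches are letters in a window and were not tested as binding sites.

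The values are MAS5 intensities, array brightness on a linear scale, with all arrays scaled to the same trimmed mean and medians between 38.9 and 77.1. The beta-actin control spots divided the arrays into 2 sets. Their log2 ratio of 3′ over 5′ signal lay between 1.33 and 1.84 for replicates 1 to 6 and between 0.48 and 0.64 for the later 4 numbers, 7 to 10. Each set held as many saline as JA16 arrays, but the ratio was lower in JA16 in 8 of 10 pairs, with a mean difference (JA16 minus saline) of -0.13. Fast fibre markers were bright, with a median Myh4 intensity of 23060 in saline and 23230 in JA16 samples. These values go with skeletal muscle and do not tell which muscle it was. The fits below are limma tests over 11200 genes with Benjamini-Hochberg adjustment, and the word block means that each replicate number, shared by a saline and a JA16 sample, had its own term.

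The first comparison asks whether transcripts of the Rab regulators differ between JA16 and saline. The brightest Tbc1d1 probe set ran from 1950 over a median of 3194 to 5624 in saline and from 1259 over 2268 to 4004 in JA16 samples. The groups overlapped, although 3 JA16 samples lay below the lowest saline sample and 3 saline samples above the highest JA16 sample. Within replicate numbers the JA16 sample was the lower one in 10 of 10 pairs, by 0.20 (pair 4) to 1.12 (pair 3) on the log2 scale. Group means were 3531 ± 1172 in saline and 2406 ± 870 in JA16 samples (SD, n = 10).

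The log2 fold change of Tbc1d1 was -0.57, which is a level 0.675 times that in saline. Its SE was 0.21 without the block (limma adjusted p = 1.00, unadjusted p = 0.0132) and 0.085 with it (limma adjusted p = 0.0107). With the block, 31 of 11200 genes were called, a share of 0.277%, and 14 of them, or 0.125%, were lower. Without it 4 genes were called, or 0.0357%, and 3 of these, or 0.0268%, were lower. None of the 8 genes was among the 4 (0 of 8), and 1 of the 8 had an unadjusted p under 0.05 in limma, as did 2.65% of all genes. Across all genes 65, or 0.58%, were lower in all 10 pairs. In bulk tissue a lower signal from fewer cells of a type and less RNA per cell cannot be told apart.

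**Figure D1:**
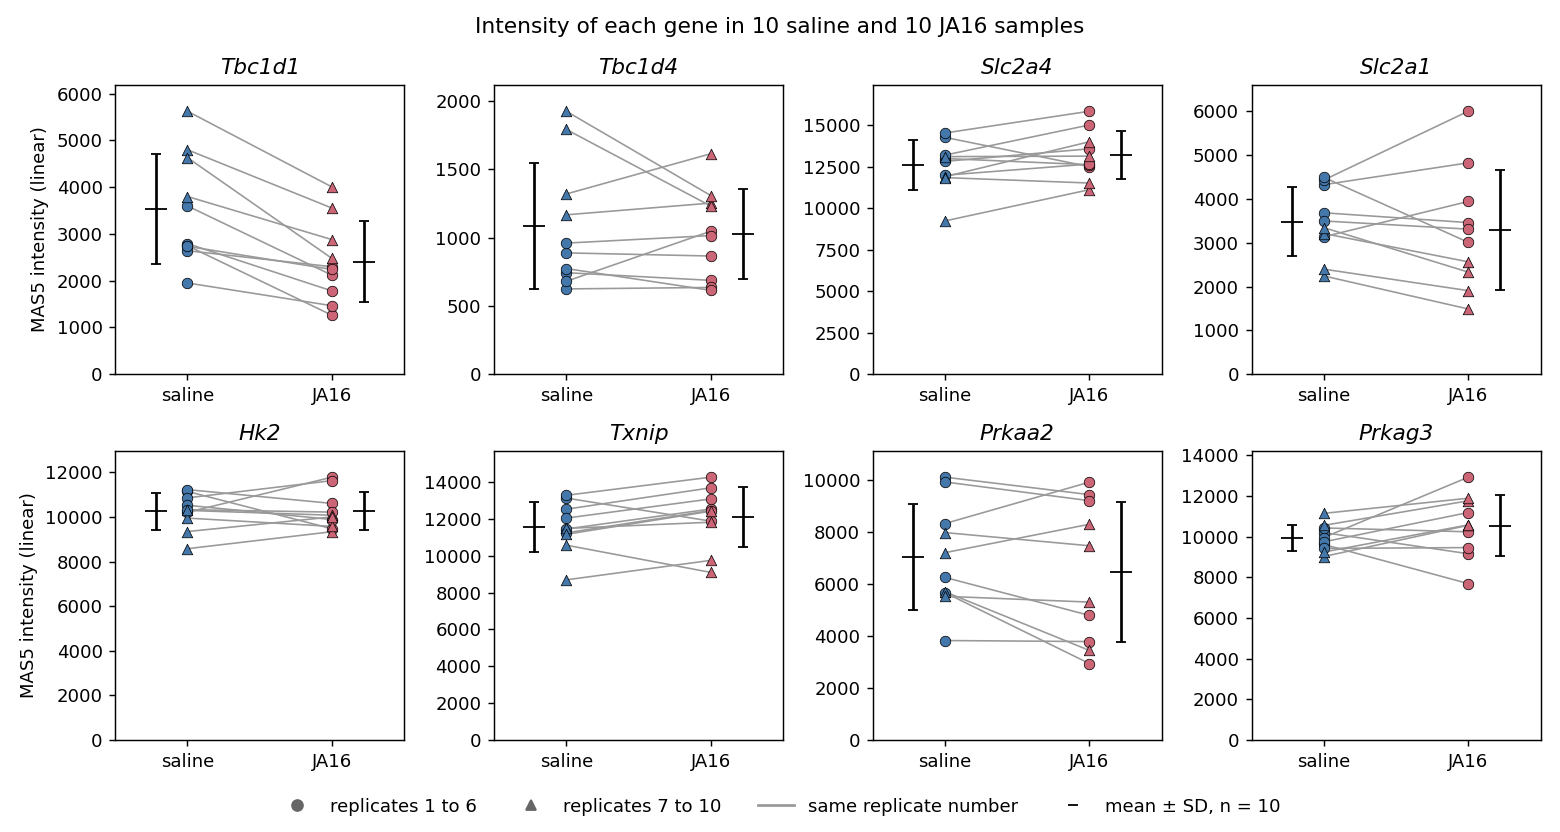
MAS5 intensity (linear axis from 0) of each gene's brightest probe set in 10 saline and 10 JA16 samples, with lines joining samples of the same replicate number, circles for replicates 1 to 6, triangles for replicates 7 to 10 and bars for the mean ± SD. All 10 Tbc1d1 lines slope down, while the lines of the other 7 genes run both ways.

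Tbc1d1 also differed between the array sets, so its pairs were compared within each. In saline it was 2743 ± 524 (SD, n = 6) in replicates 1 to 6 and 4714 ± 748 (SD, n = 4) in replicates 7 to 10, with no overlap. The JA16 means were 1859 ± 430 (SD, n = 6) and 3227 ± 682 (SD, n = 4). The treatment difference was nearly the same in both, at -0.57 and -0.56, and its change between the sets was 0.016 (SE 0.18, limma interaction adjusted p = 0.999). Neither set alone gave a call, with limma adjusted p = 0.233 for replicates 1 to 6 and adjusted p = 0.469 for replicates 7 to 10. Each of these 2 fits called 0 of 11200 genes. When the array set took the place of the replicate number in the fit, the SE was 0.13. Tbc1d1 was then not called (limma adjusted p = 0.138), in a fit that called 9 of 11200 genes. When any 1 pair was dropped from the blocked fit, the fold change stayed between -0.61 and -0.51 and the limma adjusted p between 0.0119 and 0.0279. Over replicates 1 to 6 the saline and JA16 values of Tbc1d1 had a Pearson r of 0.435 (exact permutation p = 0.422, n = 6). Spearman rho was -0.0857 (exact permutation p = 0.919), and r was -0.524 without the 2 replicates farthest from the median.

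The other 3 Tbc1d1 probe sets were dim and had the same direction. One had medians of 101 in saline and 83.7 in JA16 samples and a log2 fold change of -0.54 (blocked SE 0.16), and it was lower in 9 of 10 pairs. Another, with medians of 114 and 73.6, was at -0.52 (blocked SE 0.19) and also lower in 9 pairs, with 6 JA16 samples below every saline sample. The last was at -0.24 (blocked SE 0.15) and lower in 8 pairs. Over all 45037 probe sets that are not controls, only the brightest Tbc1d1 probe set among the 18 passed with the block (limma adjusted p = 0.0139), where 30 probe sets, or 0.0666%, were called. Without the block 2, or 0.00444%, were called and 0 of the 18. That probe set's ID ends in _s_at, which marks probes that can match several transcripts. With such probe sets left out Tbc1d1 was represented by the dim one at -0.54 and was not called (limma adjusted p = 0.165 with the block). The mean of the 4 probe sets was at -0.47 and not called either (limma adjusted p = 0.113 with the block).

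**Figure D2:**
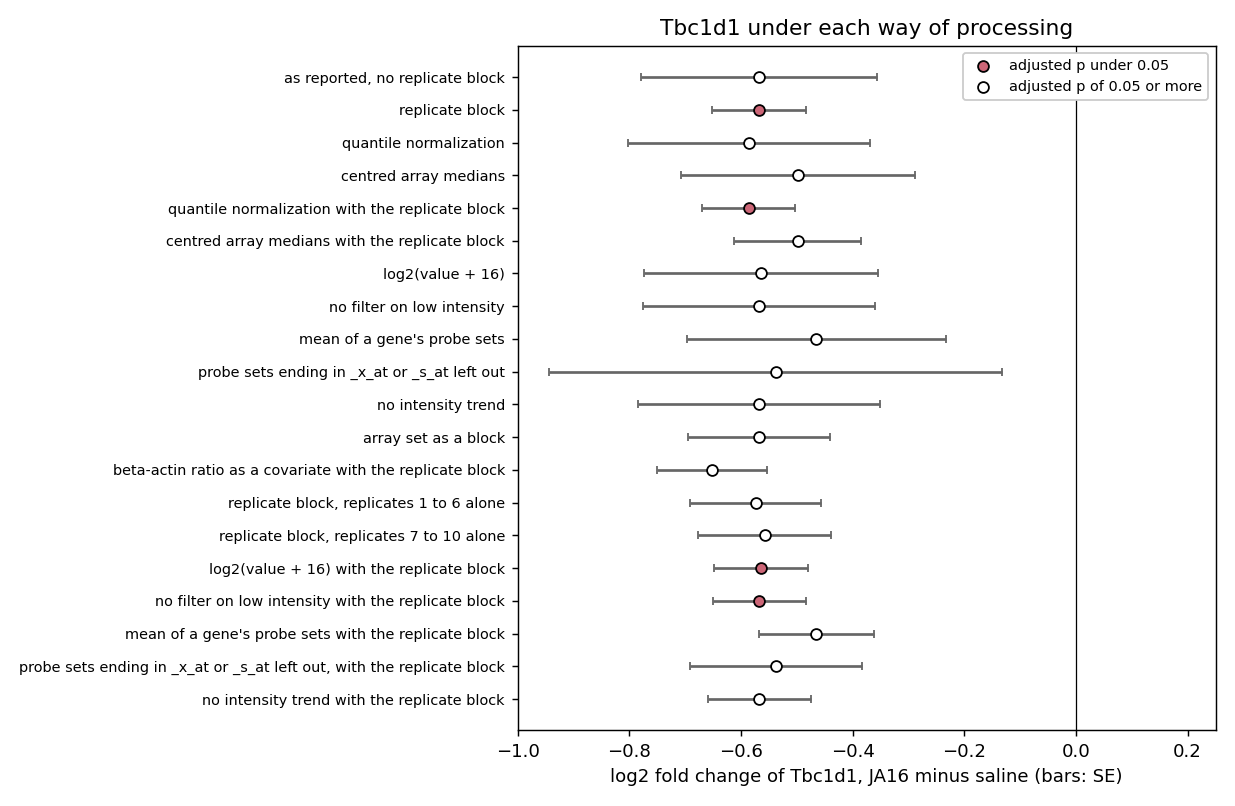
Log2 fold change of Tbc1d1 (JA16 minus saline, points with SE bars) under each way of processing, filled where the limma adjusted p was under 0.05. All points lie between -0.65 and -0.47, and the filled ones are fits with the replicate block.

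The call also depended on how arrays were scaled and on the form of the fit. With quantile normalization and the block Tbc1d1 was called, at -0.59 (limma adjusted p = 0.0107). With array medians centred and the block, the log2 fold change was -0.50 (limma adjusted p = 0.115), in a fit that called 10 genes, or 0.0893%. With the beta-actin ratio as a covariate beside the block it was -0.65 (limma adjusted p = 0.0687), and that fit called 1 of 11200 genes. Without the intensity trend beside the block Tbc1d1 missed the threshold as well (limma adjusted p = 0.0524), where 9 of 11200 genes were called. Slow fibre markers were lower beside Tbc1d1, all 11 of 11, with a median log2 fold change of -0.51 and 0 called in limma with or without the block. Their summed intensity ran from 63726 to 131220 in saline and from 11973 to 158040 in JA16 samples, with no marker at 0. The sum was lower in JA16 in 7 of 10 pairs. The lowest sum was in JA16 replicate 3, which also held the lowest Tbc1d1 value. Without that pair Tbc1d1 was at -0.51 with the block and still called (limma adjusted p = 0.0119). The part of slow fibres in the Tbc1d1 values was not tested.

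Tbc1d4, the close relative of Tbc1d1 that carries the insulin signal through Akt, was not called in either fit. Its brighter probe set ran from 624 over a median of 924 to 1926 in saline and from 614 over 1031 to 1614 in JA16 samples, and the groups overlapped almost fully. JA16 was lower in 5 of 10 pairs, and the log2 fold change was -0.046 with a 95% interval of -0.27 to 0.18 with the block (limma adjusted p = 0.865). The sign turned to 0.023 with centred array medians. The second probe set was dim, at -0.14, and lower in 6 pairs. The change in Tbc1d1 minus that in Tbc1d4 was -0.52 (SE 0.19, exact two-sided sign-flip p = 0.0215), below 0 in 7 of 10 pairs. This was 1 of 5 such differences between related genes, and after Benjamini-Hochberg adjustment over the 5 it did not pass (adjusted p = 0.103). Tbc1d1 was known to be low in JA16 samples when the pair was chosen.

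Of the transporters, Slc2a4 gave nearly the same medians in both groups. Its brighter probe set ran from 9230 over 12904 to 14527 in saline and from 11113 over 12895 to 15839 in JA16 samples. The groups overlapped, and JA16 was higher in 7 of 10 pairs. The log2 fold change was 0.071 (95% interval -0.028 to 0.17 with the block, limma adjusted p = 0.452). Without saline replicate 7 it was 0.022, without JA16 replicate 2 it was 0.040, and with quantile normalization it was 0.0084. The dimmer probe set was at 0.14 (blocked SE 0.092) and higher in 6 pairs.

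Slc2a1 encodes GLUT1, the transporter of basal uptake, which is also abundant in endothelium and nerve sheath. The brightest of its 3 probe sets ran from 2242 over 3420 to 4492 in saline and from 1487 over 3159 to 6002 in JA16 samples. The spread over all samples was wider in JA16 (SD 1369 against 789, n = 10 each). This held in replicates 1 to 6 (1130 against 566, n = 6 each) and not in replicates 7 to 10 (475 against 559, n = 4 each). The highest JA16 value was in replicate 2 and the lowest in replicate 7, and both lay outside the saline range. The log2 fold change was -0.16 (95% interval -0.38 to 0.059 with the block, limma adjusted p = 0.440), and JA16 was lower in 7 of 10 pairs. Single samples moved it, to -0.045 without JA16 replicate 7, to -0.085 without JA16 replicate 10 and to -0.27 without JA16 replicate 2. All 3 probe sets had this direction, at -0.16, -0.18 and -0.20.

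For Slc2a1 the array sets gave different pictures. JA16 was lower in 4 of 4 pairs of replicates 7 to 10, with a mean of -0.44, and in 3 of 6 pairs of replicates 1 to 6, with a mean of 0.030. The difference between the sets was -0.47 (SE 0.17, limma interaction p = 0.0175) and did not pass over all genes (adjusted p = 0.999). In that test 0 of 11200 genes passed, a share of 0%, with 300 at an unadjusted p under 0.05. Endothelial markers were lower for 7 of 8 genes (median -0.18), with summed intensities of 5174 to 8169 in saline and 4083 to 7551 in JA16 samples, lower in 9 of 10 pairs and no marker at 0. All 6 nerve and Schwann cell markers with a probe set, of 9 listed, were lower as well, with sums of 9222 to 18784 and 6529 to 18250. Of 5 listed red blood cell markers 3 had a probe set, and their sum was lower in 5 of 10 pairs, from 160 to 486 in saline and 134 to 599.7 in JA16 samples. Alas2 was at -0.096, while Hba-a1 (0.47) and Slc4a1 (0.46) lay below the limit for dim signals, with Hba-a1 medians of 2.5 and 5.0. The part of these cell types in the Slc2a1 values was not tested. The Slc2a4 change minus the Slc2a1 change was 0.23 (SE 0.13, exact sign-flip p = 0.102, adjusted p = 0.170 over the 5), with a 95% interval of -0.065 to 0.53.

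Hk2, the hexokinase of insulin-sensitive muscle, was not called in either fit. It ran from 8574 over 10305 to 11221 in saline and from 9334 over 10035 to 11778 in JA16 samples, with JA16 lower in 6 of 10 pairs. The log2 fold change was 0.0019, with a 95% interval of -0.095 to 0.099 with the block (limma adjusted p = 0.990), and it was -0.063 with quantile normalization and 0.071 with centred array medians. Hk1, the other hexokinase that passed the filter, was at -0.018 (blocked SE 0.12). The difference between the 2 genes was 0.020 (SE 0.13, exact sign-flip p = 0.898, 95% interval -0.28 to 0.32).

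Txnip ran from 8691 over 11466 to 13277 in saline and from 9095 over 12432 to 14261 in JA16 samples. It was higher in JA16 in 8 of 10 pairs, by at most 0.17, and the log2 fold change was 0.063 (95% interval -0.034 to 0.16 with the block, limma adjusted p = 0.499). Its second probe set was at 0.15 (blocked SE 0.069) and also higher in 8 pairs. With 1 sample left out the brighter probe set ranged from 0.018 (saline replicate 7) to 0.11 (JA16 replicate 10). With quantile normalization the brighter probe set was at -0.013 and the second at 0.14, so no direction is given for the gene.

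Prkaa2 encodes the alpha-2 catalytic subunit of AMPK, the main form in muscle fibres. Its brightest probe set had the widest log2 spread of the 8 genes in JA16 samples (SD 0.66, n = 10). It ran from 3825 over 6727 to 10104 in saline and from 2939 over 6385 to 9914 in JA16 samples. High and low samples tended to share a replicate number. Over replicates 1 to 6 the saline and JA16 values had a Pearson r of 0.856 (exact permutation p = 0.0444) and a Spearman rho of 0.771 (exact permutation p = 0.103, n = 6). This was the highest r of 8 such relations, 1 for each gene, and did not pass after adjustment (adjusted p = 0.355 and 0.824 for r and rho). Without the 2 replicates farthest from the median r was 0.927. The log2 fold change was -0.20, with an SE of 0.23 without the block and 0.10 with it (95% interval -0.41 to 0.018, limma adjusted p = 0.345), and JA16 was lower in 8 of 10 pairs. The other 2 probe sets were at -0.41 (blocked SE 0.14) and -0.082 (blocked SE 0.13), neither of them called. Without JA16 replicate 1, 8 or 2 the brightest probe set was at -0.086, -0.11 or -0.13. Pair 1 had the lowest difference, -0.95 in the brightest probe set and -1.55 in the one at -0.41.

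Prkag3 encodes the gamma-3 regulatory subunit, found mainly in fast glycolytic fibres. Its single probe set ran from 9024 over 9853 to 11147 in saline and from 7693 over 10570 to 12926 in JA16 samples, and the SD was 656 in saline and 1516 in JA16 samples (n = 10 each). JA16 was higher in 7 of 10 pairs, among them 4 of 4 in replicates 7 to 10, and the log2 fold change was 0.075 (95% interval -0.053 to 0.20 with the block, limma adjusted p = 0.544). It was 0.041 without JA16 replicate 3, 0.12 without JA16 replicate 2 and 0.011 with quantile normalization. JA16 replicate 3, the sample with the lowest slow fibre sum, held the highest Prkag3 value. Fast fibre markers were higher for 9 of 10 genes, with a median log2 fold change of 0.048 and 0 called in limma with or without the block. Their sums were 184500 to 238470 in saline and 190330 to 277570 in JA16 samples, with no marker at 0. How these markers moved with quantile normalization was not examined, and their part in the Prkag3 values was not tested. Prkaa2 against Prkaa1 (difference 0.25, SE 0.11, exact sign-flip p = 0.0410, adjusted p = 0.103) and Prkag3 against Prkag1 (difference 0.095, SE 0.15, p = 0.543, adjusted p = 0.679) completed the 5 comparisons of related genes, and none passed after adjustment.

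**Figure D3:**
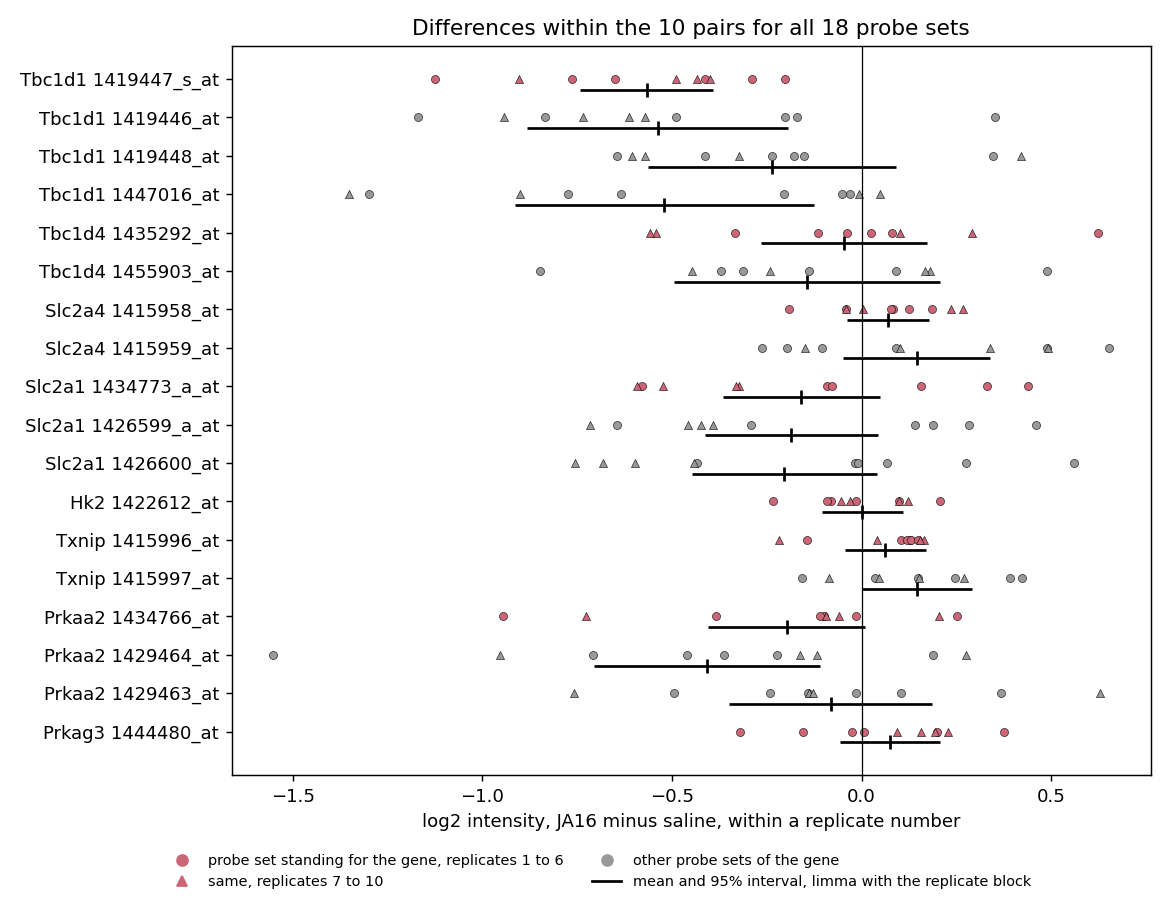
Within-pair differences in log2 intensity (JA16 minus saline) for all 18 probe sets (rows, by gene and probe set ID), 1 point for each replicate number, with the mean and 95% interval from limma with the replicate block below each row of points. The 4 Tbc1d1 rows have means from -0.57 to -0.24, and the rows of Slc2a4, Hk2 and Prkag3 lie around 0.

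In the fit over all genes, 4 of the 8 genes were higher and 4 lower in JA16, with a median of -0.022 against -0.016 over all genes tested. With the block, 1 of the 8 had an unadjusted p under 0.05, where 16.2% of all genes did. The intensities of the 2 groups overlapped for all 18 probe sets. In 5 of the 8 genes (Slc2a4, Slc2a1, Hk2, Txnip and Prkag3) the lowest saline sample was replicate 7, the array with the highest median intensity, 77.1.

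In 14 of the 18 probe sets the difference between the array sets was larger than that between treatments, in both groups. The other 4 were 1 of Tbc1d1, 2 of Prkaa2 and that of Prkag3. Probe sets of Slc2a4 and of Txnip parted from each other between the sets. For Slc2a4, the brighter probe set was 0.861 times as bright in the later array set as in the earlier one in saline, while the dimmer one was 4.08 times as bright, with means of 4621 ± 1245 (SD, n = 4) and 1118 ± 224 (SD, n = 6). Txnip had the same split, 0.850 times for the brighter and 3.41 times for the dimmer probe set. JA16 samples gave 4.32 times for the dimmer one of Slc2a4 and 3.21 times for that of Txnip. In 6 of the 18 probe sets, 2 each of Tbc1d1 and Tbc1d4 and 1 each of Slc2a4 and Txnip, the 2 array sets did not overlap in either treatment group. The same held for 7.94% of all probe sets and for 14.8% of those above the limit for dim signals, which all 18 were. Slc2a1 ran the other way, at 0.708 times in saline and 0.510 times in JA16 samples. Differences within pairs compare arrays of 1 set.

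**Figure D4:**
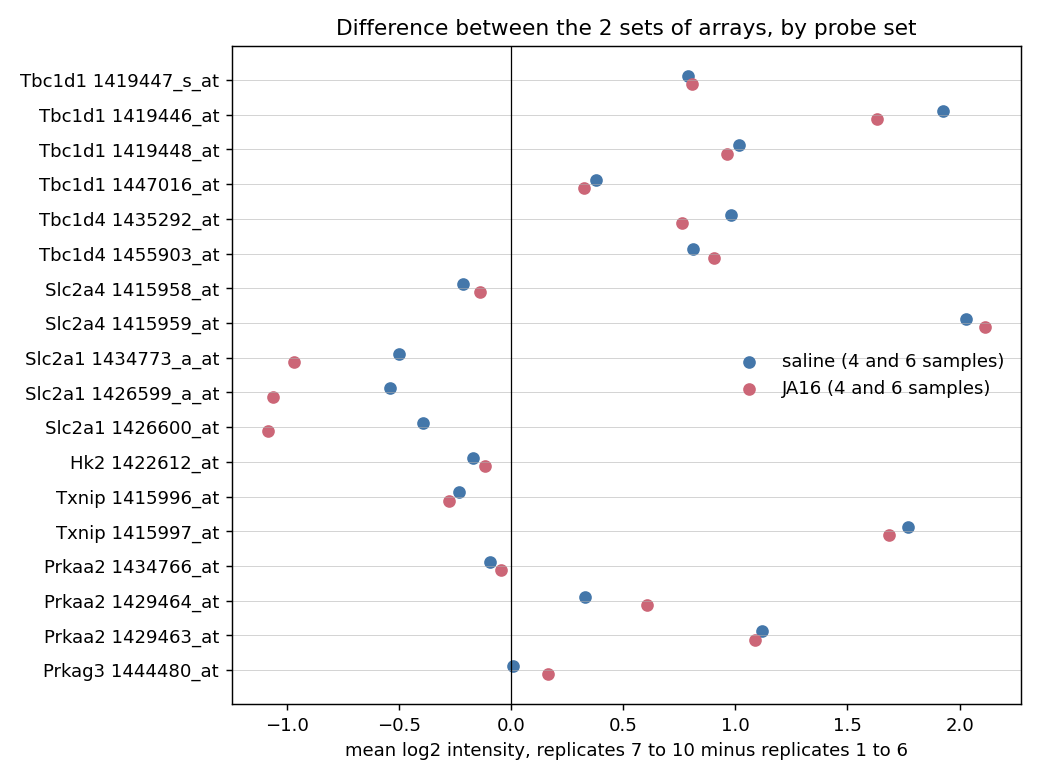
Mean log2 intensity in replicates 7 to 10 minus that in replicates 1 to 6 for each probe set, separately for saline and JA16 samples. The second probe sets of Slc2a4 and Txnip lie at 1.69 or above in both groups, while the brightest ones lie slightly below 0.

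How the genes varied together was described with their within-pair differences. Of 28 relations between 2 of the genes, 1 passed after adjustment by Pearson r. Slc2a1 and Prkag3 ran in opposite directions over the 10 pairs, with r of -0.856 (permutation p = 0.00127, adjusted p = 0.0356) and rho of -0.867 (permutation p = 0.0023, adjusted p = 0.0644), so that the rank measure did not pass. In pair 2 Slc2a1 was higher in JA16 by 0.44 and Prkag3 differed by -0.32, and in pair 3 the values were -0.58 and 0.38. Without the 2 pairs farthest from the median of Slc2a1 r was -0.777, and within replicates 1 to 6 it was -0.908. Tbc1d1 and Tbc1d4 had r of -0.666 (permutation p = 0.0357, adjusted p = 0.480), which was -0.101 without the 2 pairs farthest from the median.

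For each gene the 3 tested genes with the most similar pattern were taken by the Pearson correlation of deviations from the group means over 20 samples, given as a description. For Tbc1d1 they were Pknox1, Atg4d and Psmg3 (0.946, 0.945 and 0.944), and within the array sets the values were 0.838, 0.826 and 0.892. None of these 3 shared its treatment difference, with log2 fold changes of -0.057, 0.23 and 0.11. For Slc2a4 they were Mrpl11, Phpt1 and Ndufb9 (0.970 to 0.962), and for Txnip Ndufa12, Rnf187 and Atp5d (0.944 to 0.931). Prkaa2 followed Usp47, Samd4 and Wdr26 most closely (0.984 to 0.980), and Hk2 followed Egln1 (0.951), Hspa8 and Pink1. Tbc1d4 was nearest to Pdcl3, Ttc32 and Ginm1 (0.932 to 0.916) and Slc2a1 to Fam53c, Slc35e3 and Zbtb39 (0.932 to 0.929). Prkag3 had the weakest neighbours, Dtnb, Chia1 and Fzd7 (0.703 to 0.678). Same-numbered samples, array sets and array scaling are shared by all genes in these values.

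Around the 8 genes, 93 others of glucose uptake were listed, of which 80 were tested. Of the 80, 33 were higher and 47 lower in JA16, where 54.2% of all genes tested were lower. The median of the 80 was -0.031, and 0 passed in limma with or without the block. With the block 14 of the 80, or 17.5%, had an unadjusted p under 0.05, 3 higher and 11 lower, against 16.2% of all genes, and without it 3 did.

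Arrestin-domain genes, thioredoxin genes and glucose-sensing factors had 10 tested members, 6 higher and 4 lower. Arrdc3, a relative of Txnip, came nearest to a call of all 80 genes. It ran from 1265 over 2151 to 3339 in saline and from 792 over 1346 to 2121 in JA16 samples and was lower in 10 of 10 pairs. Its log2 fold change was -0.58 (blocked SE 0.13, blocked limma adjusted p = 0.0956). Mlxipl, which encodes the glucose-sensing factor ChREBP, was at 0.18 (blocked SE 0.092, blocked limma adjusted p = 0.354).

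AMPK subunits and regulators had 14 tested members, 6 higher and 8 lower. Prkag2, the gamma-2 subunit, was higher in 10 of 10 pairs and in all 4 of its probe sets, from 294.7 ± 68.6 in saline to 373 ± 89.7 in JA16 samples (SD, n = 10). Its log2 fold change was 0.34 (blocked SE 0.093, blocked limma adjusted p = 0.136). Prkaa1, the alpha-1 subunit, was lower in 9 of 10 pairs at -0.45 (blocked SE 0.13, blocked limma adjusted p = 0.169). For neither gene did the difference pass the threshold.

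Insulin signalling genes had 16 tested members, 5 higher and 11 lower, with a median of -0.079. Grb14, an adaptor that inhibits the insulin receptor, was at -0.53 (blocked SE 0.19, blocked limma adjusted p = 0.220). It was lower in 7 of 10 pairs, with its 2 probe sets in opposite directions. Irs1, the docking protein of the receptor, was at 0.24 (blocked SE 0.079, blocked limma adjusted p = 0.197) and higher in 8 pairs.

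Genes of GLUT4 vesicle traffic had a median of 0.0051, with 12 of 21 members higher. Sort1, the sortilin gene of GLUT4 vesicle formation, was at 0.26 (blocked SE 0.088, blocked limma adjusted p = 0.204). It was higher in 8 pairs and in all 3 probe sets. Stxbp3, which encodes the syntaxin-binding protein Munc18c, was at -0.24 (blocked SE 0.10, blocked limma adjusted p = 0.262). The transcription factors linked to Slc2a4 and Hk2 had 14 tested members, 12 of them lower (median -0.063), against 54.2% of all genes. Several of the 12 lay near 0, among them Nr4a1 (-0.00027), Ppard (-0.0069) and Mef2d (-0.038). Centred array medians moved the median of all genes from -0.016 to 0.054, and the count of 12 was not taken again with them. With the block 14.3% of these genes had an unadjusted limma p under 0.05, against 16.2% of all genes. Hif1a, the oxygen-sensing factor, was at -0.36 (blocked SE 0.12, blocked limma adjusted p = 0.191), lower in 8 pairs and in all 4 probe sets. Klf15, which raises GLUT4 in muscle, was at -0.23 (blocked SE 0.12, blocked limma adjusted p = 0.340).

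Of 9 other hexose transporters 4 were tested, 2 higher and 2 lower. Slc2a10 was dim, with medians of 104 in saline and 74.0 in JA16 samples, and at -0.40 (blocked SE 0.21). Slc2a12 was at 0.088 (blocked SE 0.090). Of the 5 listed genes of hexose phosphorylation only Hk1 passed the filter on dim signals.

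**Figure D5:**
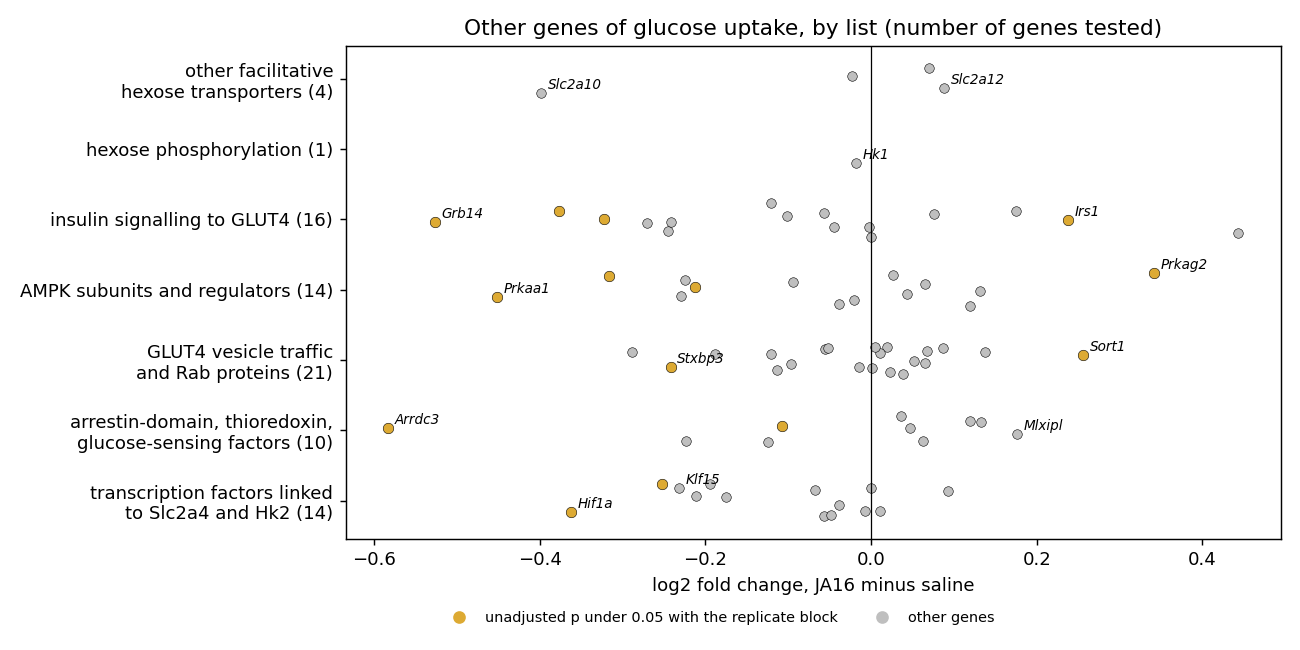
Log2 fold changes (JA16 minus saline) of the 80 tested genes around the 8, by list, with genes at an unadjusted p under 0.05 in the blocked limma fit in yellow and the named genes labelled. Most values lie within 0.4 of 0, and 0 genes passed the adjusted threshold.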

How the data were processed

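RNA from the gastrocnemius was extracted with Trizol, amplified and labelled with NuGEN kits and hybridised to Affymetrix mouse arrays, per the labels' protocols. The authors deposited an intensity for every probe set on every array, computed with MAS5 per the submitters' processing notes. Its version, scaling target and detection calls: not given in the sources used here. The number of arrays limits the precision.

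Of the intensities, 5 were not above 0 and were replaced by 0.1 before log2 was taken. Probe sets entered at a mean log2 of 5.65 or above, and the probe set with the highest mean stood for its gene. Every probe set that is not an array control also entered a second fit with no filter. JA16 was set against saline in R 4.3.3 with limma 3.58.1 (moderated two-sided tests with an intensity trend), at an adjusted p of 0.05. The code was tested on simulated data. Related genes were compared by exact sign flips over pairs and relations by permutation with scipy 1.17.1.

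The fit without the replicate number is the reported one. After group means were subtracted, the 2 samples of a number correlated at 0.377 to 0.786 (all 10 above the limit of 0.1, against a median of -0.108 for unlike numbers). Each pair also lies within a single array set, and the array-set difference was not removed before this check. The check therefore cannot tell pairing by number from a shared array set. The fold changes are the same with and without the block. The limma intervals printed for single genes, and most of the SEs and adjusted p-values, are those of the blocked fit. Without the block the intervals were wider. They ran from -0.51 to 0.42 for Tbc1d4, from -0.59 to 0.27 for Slc2a1 and from -0.67 to 0.28 for Prkaa2. In every pair the saline sample carries the lower array number.

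The 8 genes and the lists around them were chosen with earlier results of these data known. Named are the 8 genes with all probe sets, the 2 genes of each list with the smallest unadjusted p in the unblocked fit (and any that passed, of which there were 0) and the 3 genes most like each of the 8. Symbols come from the platform annotation, with 34945 single-gene probe sets, and the gene identifiers of 34741 matched a RefSeq table of GRCm38.p6. Promoter sequences are RefSeq's. Marker lists for adipocytes, red blood cells, macrophages and leukocytes, and fibroblasts and tendon had median log2 fold changes of -0.38, 0.46, -0.074 and -0.20. The red blood cell value is that of Slc4a1, a dim probe set. The 1 red blood cell marker above the limit for dim signals, Alas2, was at -0.096.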

Additional observations from a re-analysis of the deposited data

Results flagged for a closer look

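The Slc2a4 intensity of saline replicate 7 (brighter probe set) was 9230 (9229.8), apart from the other 9 saline samples, the nearest of which was at 11839. The gap was 0.549 of the group's log2 range, above the limit of 0.466 for 10 samples. It was the 1 sample set apart in this way in 36 groups (18 probe sets in 2 treatment groups), and chance sets apart about 1 group in 20. The same array had the lowest saline value of Slc2a1, Hk2, Txnip and Prkag3.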

How the results depend on the processing

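The number of arrays and their 2 sets limit these results. Tbc1d1 kept its direction under every alternative run, and 0 of the 80 surrounding genes passed under any. Of the 8 genes 0 passed without the replicate block and 1 (Tbc1d1) with it. That 1 also passed with quantile normalization, log2(value + 16) or no filter beside the block and in the blocked fit without any 1 pair. Beside the block, 0 passed with centred medians, the beta-actin ratio, the mean of probe sets, _x_at and _s_at probe sets left out, no intensity trend, or either array set alone. With 1 sample or pair left out the count was 0 to 1. Of the 18 probe sets 0 passed without the block, and 1 with it, also with quantile normalization or the filter beside it. All genes called numbered 4, and 31 with the block. They numbered 2 with centred medians, 9 with the array set as a block, 1 with the beta-actin ratio and the block, and 0 in each array set alone, where 1099 (replicates 1 to 6) and 799 genes had an unadjusted p under 0.05. Beside the block they were 29 with quantile normalization, 10 with centred medians, 31 with log2(value + 16), 31 with no filter, 15 with the mean of probe sets, 28 without _x_at and _s_at probe sets and 9 without the intensity trend. The last 5 and the filtered and quantile-normalized fits of probe sets with the block were chosen after seeing the data. Leaving out 1 sample gave 2 to 5 genes, with 2 when saline replicate 3, 5 or 8 or JA16 replicate 1, 3, 6, 7, 9 or 10 was left out. Leaving out 1 pair with the block gave 10 to 51, with 51 without pair 1, 10 without pair 4, 11 without pair 6, 14 without pair 7 and 16 without pair 8 or 9. The block changed no other call among the 8 genes.

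Small values turned sign. Tbc1d4 was at 0.023 with centred medians, 0.0084 with the beta-actin ratio and 0.041 in replicates 1 to 6, and ran from -0.13 to 0.057 with 1 sample or pair left out. Slc2a1 was at 0.030 in replicates 1 to 6. Hk2 was at -0.063 with quantile normalization and -0.019 in replicates 1 to 6, and from -0.026 to 0.028 with 1 left out. Txnip was at -0.013 with quantile normalization. Slc2a4, Prkaa2 and Prkag3 kept their signs in all alternatives run, but not their sizes. With 1 sample or pair left out they ran from 0.022 to 0.0996, from -0.29 to -0.086 and from 0.041 to 0.12.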
